A study of Arabidopsis thaliana with 6 samples.

Results

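*ROS1*, *DME*, *DML2*, *DML3* and *IBM1*, 5 genes whose products limit DNA methylation in *Arabidopsis thaliana*, were examined by their gene identifiers among the 26764 genes of an RNA-seq count table. All 5 were present and passed the filter on low counts. Linker histone mutants that combine the alleles *h1.1-1*, *h1.2-2* and *h1.3-2*, hereafter *3h1*, were compared with wild-type (wt) plants, both in the Col-0 ecotype and both 3 weeks old. *3h1* carries T-DNA insertions in all 3 genes for linker histone H1. Its *h1.3* allele came from the L*er* ecotype through backcrosses that left residual L*er* sequence, mainly near *H1.3*. The authors describe removing reads that overlap this sequence in their methods for MNase-seq. Their RNA-seq methods do not state whether the counts were filtered in this way. Each genotype is represented by 3 biological replicates of pooled whole seedlings grown on plates in long days, so that all tissues are measured together, and fewer cells expressing a gene cannot be told apart from less RNA per cell.

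DNA methylation is laid down by methyltransferases and taken away by 4 bifunctional DNA glycosylases that cut 5-methylcytosine out of the DNA, after which base excision repair fills in an unmethylated cytosine. ROS1 is the main demethylase of vegetative tissues and guards the edges of genes and transposable elements, DME acts above all in the central cell of the ovule, where it sets up imprinting in the endosperm, and DML2 and DML3 are further somatic members of the family. IBM1 works on a neighbouring mark. It is a jumonji-type histone demethylase that takes methyl groups off H3K9 in transcribed genes and thereby keeps the chromomethylase CMT3 from methylating gene bodies. *ROS1* and *IBM1* are both known as genes whose own transcripts need DNA methylation, at the *ROS1* promoter and in a long intron of *IBM1*, and *ROS1* RNA is known to be low in mutants of the methylation machinery.

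The 4 glycosylases share a catalytic centre. The coding bases around it are shown because they mark what makes these genes a family and how far their transcripts can be told apart by short reads. They were read from TAIR10.1, 5′ to 3′ on the coding strand with 1 intron taken out of each, from chr2:15310587-15310753 (minus strand, *ROS1*), chr5:1315113-1315285 (plus strand, *DME*), chr3:3084430-3084604 (minus strand, *DML2*) and chr4:16316833-16317001 (plus strand, *DML3*). Capitals mark the codons of the lysine and the aspartate that glycosylases of this kind use for catalysis.
ROS1: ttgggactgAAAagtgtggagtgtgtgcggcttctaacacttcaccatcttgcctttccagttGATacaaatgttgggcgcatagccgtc
DME: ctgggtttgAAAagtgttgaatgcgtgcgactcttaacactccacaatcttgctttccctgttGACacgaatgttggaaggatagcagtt
DML2: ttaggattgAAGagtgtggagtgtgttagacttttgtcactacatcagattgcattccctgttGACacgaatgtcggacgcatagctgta
DML3: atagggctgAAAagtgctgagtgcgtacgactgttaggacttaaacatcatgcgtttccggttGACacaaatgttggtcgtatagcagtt

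Over these 90 bases, the 6 pairs of glycosylase genes were identical at 68.9 to 76.7% of the positions. The longest run of identical bases between the transcripts of any pair of the 5 genes was 23 bases, between *ROS1* and *DML2*, and the best match of *ROS1* elsewhere in the genome was a stretch of 289 bases in *DME* with 67.1% identity. None of the 5 genes (0 of 5) overlaps another annotated gene. Their counts were nevertheless not whole numbers (by more than 0.01 of a count) in 2 of 6 libraries for *ROS1* and *IBM1*, 3 for *DME* and *DML2* and 1 for *DML3*, as the authors' counting divided multi-mapping reads between loci. For IBM1, the corresponding stretch lies in the jumonji domain at chr3:2429059-2429124 (plus strand), and capitals mark the codons of a histidine and an aspartate that bind the catalytic iron in such enzymes.
IBM1: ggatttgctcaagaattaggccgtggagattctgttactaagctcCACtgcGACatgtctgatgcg

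The gene models differ in ways that bear on a count per gene. *ROS1* (AT2G36490, chromosome 2 from 15307907 to 15314807) has 1 annotated transcript with 21 exons, and lies 2.26 Mb from *H1.2* and 7.46 Mb from *H1.3* on the same chromosome. *DME* (AT5G04560, chromosome 5 from 1309099 to 1318520) has 3 transcripts with different ends, *DML2* (AT3G10010, chromosome 3 from 3081735 to 3088550) has 2 and *DML3* (AT4G34060, chromosome 4 from 16313366 to 16319426) has 5. *IBM1* (AT3G07610, chromosome 3 from 2425884 to 2433113) has 3. Of these, 1 stops at position 2430203 inside the long intron and gives a shortened product, whereas the others continue with further exons. Of the 4664 exonic bases of *IBM1*, 1266 (27.1%) lie beyond the end of the short transcript. Each gene has a single count, so that the short and the long *IBM1* transcripts were not separated.

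**Figure D1:**
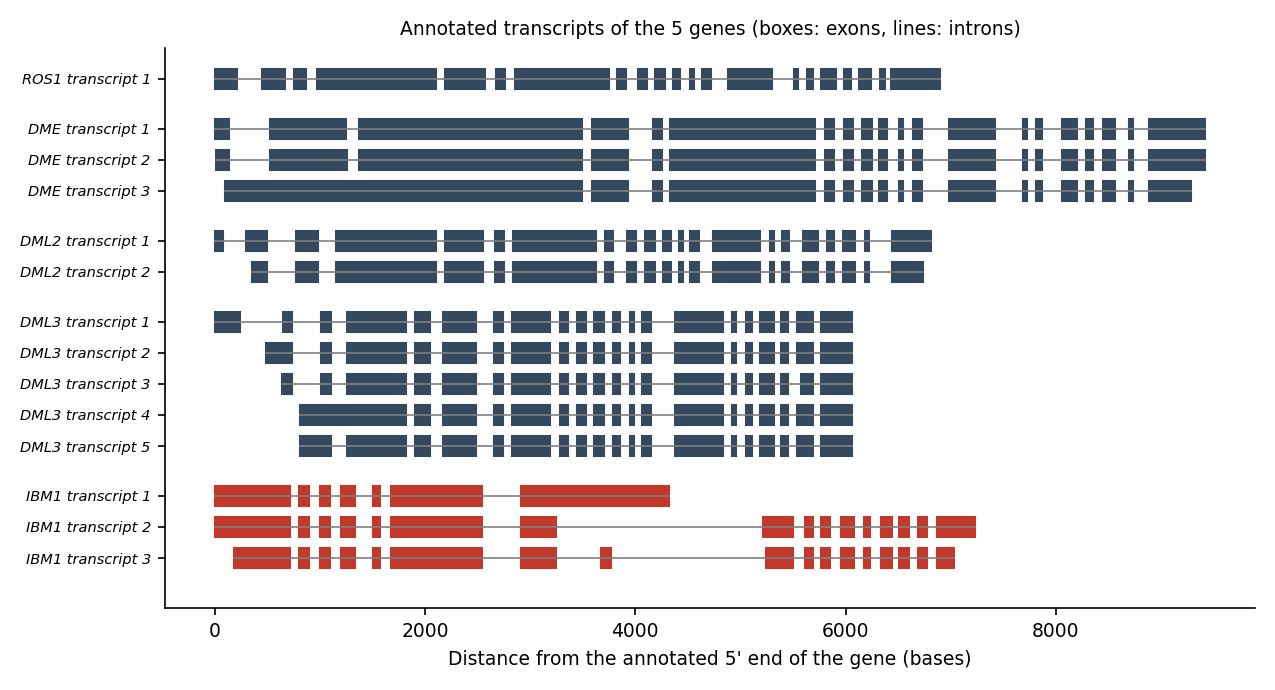
Annotated transcripts of the 5 genes on TAIR10.1, drawn by distance in bases from the 5′ end of each gene, with exons as boxes and introns as lines. *IBM1* is drawn in red, and its first transcript has 7 exons and ends inside the long intron of the second, which has 16 exons and continues to the 3′ end of the gene.

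The libraries held between 5115676 and 6174881 counts in *3h1* and between 4753812 and 5924967 in wt, of which chloroplast transcripts took 52.2 to 54.5% in *3h1* and 55.5 to 60.0% in wt. The genotype labels were checked with the H1 genes. *H1.1* (AT1G06760) had 12.5 to 19.4 CPM (counts scaled to library size after TMM normalization) in *3h1* against 68.3 to 103.2 in wt, and *H1.2* (AT2G30620) had 12.8 to 14.2 CPM in *3h1* against 69.0 to 87.2 in wt (adjusted p = 0.00163 and 4.05e-05, edgeR's quasi-likelihood test). *H1.3* was not analysed here. Among the 17453 genes tested, 0.0401% had an adjusted p under 0.05 in edgeR's test, and 535 (3.07%) had an unadjusted p under 0.05 with a fold change over 2. Tissue content was described with small marker lists. Of 3 root markers only *PYK10* was tested, and the 3 summed to 169 to 236 CPM in *3h1* and to 155 to 212 CPM in wt. The sums for dividing cells and for senescence likewise overlapped between the genotypes. The leaf markers *RBCS1A*, *CAB1* and *CA1* summed to 4442 to 5330 CPM in *3h1* and to 5811 to 6835 CPM in wt, while 4 floral and seed markers together held at most 6.38 CPM in *3h1* and 3.24 CPM in wt, and none of these 4 passed the filter.

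Per exon length, the 5 genes kept nearly the same order in all libraries (RPKM, counts scaled to exon length and to the library total). The totals include chloroplast transcripts, whose share was lower in *3h1*. With scaling by totals alone, the median log2 fold change of all genes was 0.24. RPKM is therefore given to compare genes within a library, and the genotypes are compared by CPM below. *ROS1* had 6.45 ± 1.199 RPKM in *3h1* and 9.42 ± 0.939 in wt (SD, n = 3 each). *DME* had 6.83 ± 0.152 RPKM in *3h1* and 6.13 ± 1.095 in wt. *DML2* followed with 3.94 ± 0.331 RPKM in *3h1* and 2.52 ± 0.698 in wt, *IBM1* with 2.83 ± 0.293 in *3h1* and 2.79 ± 0.387 in wt, and *DML3* was last with 0.723 ± 0.152 in *3h1* and 0.424 ± 0.242 in wt. In every wt library *ROS1* stood above *DME*. In *3h1*, *DME* stood above *ROS1* in replicates 1 and 2 and below it in replicate 3, and the levels of these genes were within their spread of each other. *DML2* stood above *IBM1* in all libraries other than wt replicate 3, and in wt these neighbours did not differ beyond their spread (2.39 RPKM for both in wt replicate 2). *DML3* was the lowest of the 5 in all 6 libraries.

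*ROS1* had the smallest p of the 5 genes. Its counts were 194, 129 and 225 in *3h1* (replicates in numerical order, here and below), against 278, 192 and 272 in wt. After normalization this corresponded to 28.9, 24.1 and 33.6 CPM in *3h1*, against 45.7, 47.9 and 55.2 CPM in wt, so that every *3h1* library lay below every wt library. The mean was 28.9 ± 4.77 CPM in *3h1* and 49.6 ± 4.998 CPM in wt (SD, n = 3 each). The log2 fold change was -0.77 with a standard error of 0.16, that is 0.585 times the wt level with a 95% interval of 0.460 to 0.744. The unadjusted p was 0.000436 in edgeR's quasi-likelihood test, a value undercut by 0.212% of the genes tested, while the adjusted p was 0.1999. *ROS1* thus did not pass an adjusted threshold of 0.05, nor a fold change of 2. It was among the 124 genes (0.71% of those tested) that were lower in *3h1* with an unadjusted p under 0.01 and a fold change over 1.5. The authors used such a cutoff in a supplementary figure, but on p values from Partek's gene-specific analysis. Whether *ROS1* was among their genes was not checked. A gene was called here by its adjusted p. In wt, *ROS1* exceeded 85.3 to 87.5% of the nuclear genes in RPKM, and in *3h1* 72.9 to 80.1% of them.

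**Figure D2:**
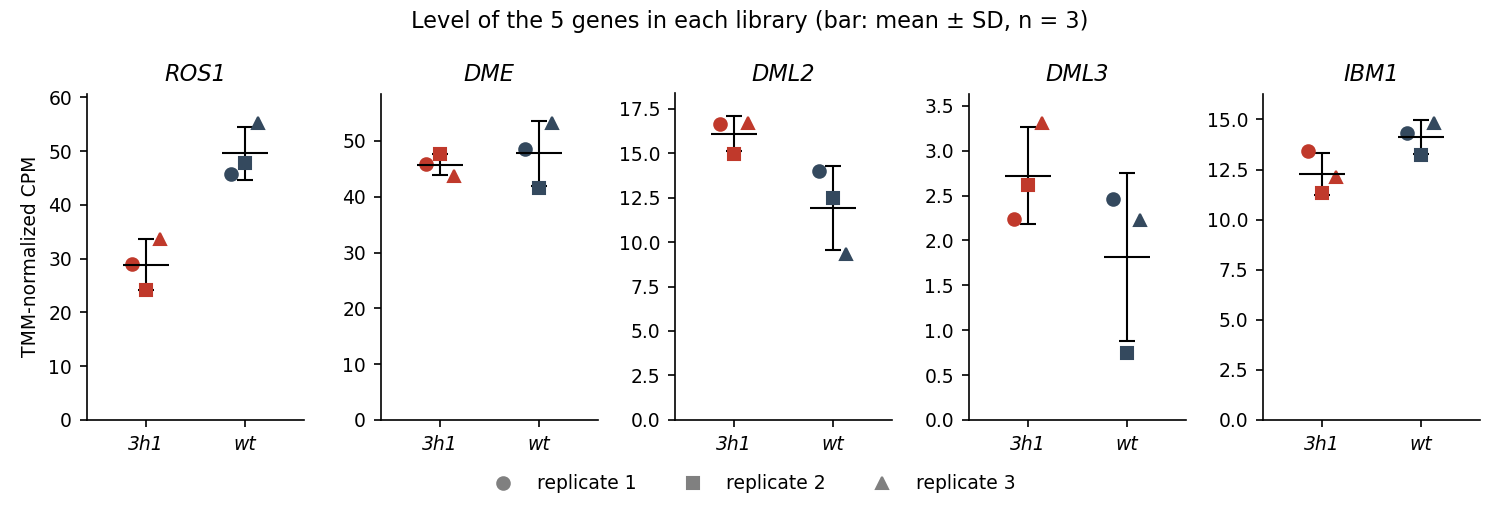
TMM-normalized CPM of the 5 genes in each library, *3h1* in red and wt in dark blue, with symbols for replicates and bars for the mean ± SD (n = 3). *ROS1* was lower and *DML2* higher in all *3h1* libraries than in any wt library, while the other genes overlapped.

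The log2 fold change of *ROS1* was also negative under the other settings, for which the overlap of single libraries was not computed. Its log2 fold change was between -1.03 and -0.54 over 17 alternatives, with the unadjusted p between 0.000153 and 0.00932 and the adjusted p between 0.0805 (DESeq2) and 0.671 (edgeR without *3h1* replicate 1). Replicates 1 and 3 of *3h1* had fractional counts for 34.8 and 44.5% of the genes in the table, against 17.4 to 24.6% in the other libraries. Without both of them only *3h1* replicate 2 remained, which had the lowest *ROS1* CPM of all libraries. The log2 fold change of -1.03 came from that fit and rests on this single *3h1* library. The summed leaf markers moved with the genotypes as well, through *CAB1* (log2 fold change -0.50), whereas *RBCS1A* (-0.20) and *CA1* (-0.086) overlapped between the genotypes. Their part in the *ROS1* values was not tested.

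*DME*, in contrast, differed little. It was counted 307, 255 and 293 times in *3h1* and 296, 167 and 262 times in wt, or 45.8, 47.6 and 43.8 CPM in *3h1* against 48.5, 41.6 and 53.2 CPM in wt. The groups overlapped, and the *3h1* libraries lay inside the range of wt. The log2 fold change was -0.066 with a standard error of 0.14, and the 95% interval of the fold change was 0.772 to 1.18 (adjusted p = 0.913, edgeR). Its direction was not stable, since the log2 fold change was 0.0016 without wt replicate 3 and 0.16 with scaling by library totals alone, where the median of all genes was 0.24.

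*DML2* had the opposite sign to *ROS1*. It was counted 112, 80.0 and 112 times in *3h1*, against 85.1, 50 and 46 times in wt, or 16.6, 14.9 and 16.7 CPM in *3h1* against 14.0, 12.5 and 9.34 CPM in wt. In each of the 9 possible pairings the *3h1* library was thus the higher one, although the lowest *3h1* and the highest wt library were close. The log2 fold change was 0.43 with a standard error of 0.19, or 1.35 times the wt level with a 95% interval of 1.01 to 1.80 (unadjusted p = 0.0420, adjusted p = 0.504, edgeR's quasi-likelihood test). The unadjusted p depended on single libraries. In edgeR's test it was 0.0979, 0.0530 and 0.0852 without *3h1* replicates 1, 2 and 3, and 0.0695 and 0.189 without wt replicates 2 and 3, whereas it was 0.0256 without wt replicate 1. Its log2 fold change was 0.41, 0.46 and 0.41 without *3h1* replicates 1, 2 and 3, and 0.57, 0.45 and 0.27 without wt replicates 1, 2 and 3, so that wt replicate 3 moved it most. Without *3h1* replicates 1 and 3 together, which left replicate 2 alone for *3h1*, the log2 fold change was 0.33.

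*DML3* had the fewest counts. It was counted 15, 14 and 22.1 times in *3h1* and 15, 3 and 11 times in wt, which gave 2.24, 2.62 and 3.31 CPM in *3h1* against 2.46, 0.748 and 2.23 CPM in wt. Replicate 2 of wt stood apart with the lowest value, replicate 3 of wt lay just below the lowest *3h1* library, and the groups overlapped through wt replicate 1 alone. The log2 fold change was 0.53 with a standard error of 0.45 and a 95% interval of -0.45 to 1.51 (adjusted p = 0.751, edgeR), and it was 0.19 without wt replicate 2.

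*IBM1* was counted 90, 60.6 and 81 times in *3h1* and 87.4, 53 and 73 times in wt. Normalized, it had 13.4, 11.3 and 12.1 CPM in *3h1* against 14.3, 13.2 and 14.8 CPM in wt. The *3h1* value was the lower one in 8 of 9 pairings, and the groups overlapped through *3h1* replicate 1 and wt replicate 2. The log2 fold change was -0.20 with a standard error of 0.17, and the 95% interval of the fold change was 0.675 to 1.13 (adjusted p = 0.756, edgeR). With scaling by library totals alone it was 0.031, at a median of 0.24 for all genes. The value holds for the sum of the short and long transcripts.

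Taking the 5 genes as a list, 0 had an adjusted p under 0.05 in edgeR's test, as well as in DESeq2 and in limma voom. An unadjusted p under 0.05 was reached by 2 genes in edgeR, where 9.5% of all genes tested reached it, by 2 in limma voom and by 1 in DESeq2. In edgeR the genes were *ROS1* on the lower side, where 4.17% of all genes had such a p, and *DML2* on the higher side, where 5.33% did. The same genes were those whose groups did not overlap in CPM, as was the case for 15.1% of all genes, 7.53% on the lower and 7.6% on the higher side. The median log2 fold change of the 5 genes was -0.066, beside 0.011 for all genes tested.

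**Figure D3:**
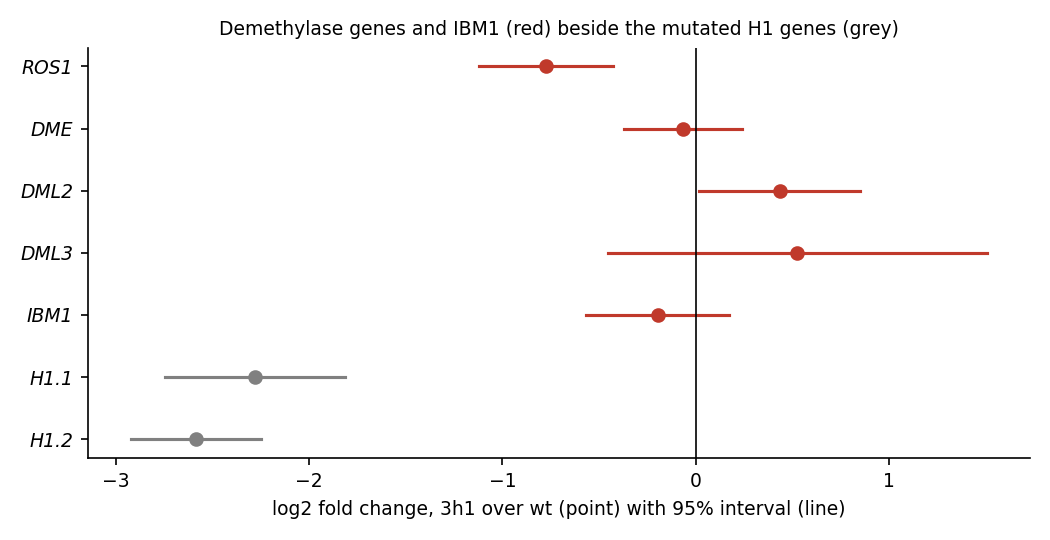
Log2 fold change of *3h1* over wt (points) with 95% intervals (lines) from edgeR for the 5 genes in red and the mutated *H1.1* and *H1.2* in grey. The interval of *ROS1* ends at -0.43 and that of *DML2* begins at 0.019, while those of *DME*, *DML3* and *IBM1* include 0.

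Ratios between genes of the same library need no scaling factor, and were computed for all 10 pairs of the 5 genes after their levels had been seen. Per exon length, the ratio of *ROS1* to *DME* was 0.942, 0.753 and 1.14 in *3h1*, against 1.40, 1.71 and 1.55 in wt. *ROS1* therefore exceeded *DME* in all wt libraries but in only 1 of the *3h1* libraries. The difference in mean log2 ratio was -0.73 between *3h1* (-0.10 ± 0.30) and wt (0.63 ± 0.14; SD, n = 3 each; exact two-sided permutation test, p = 0.1, adjusted p = 0.167 over 10 ratios). With 3 libraries against 3, this test cannot give a p under 0.1.

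The ratio of *ROS1* to *DML2* was 1.58, 1.47 and 1.83 in *3h1*, against 2.97, 3.49 and 5.38 in wt, and that of *ROS1* to *IBM1* was 2.08, 2.06 and 2.68 in *3h1*, against 3.07, 3.50 and 3.60 in wt. Both were lower in every *3h1* library than in any wt library. The ratios that involve *ROS1* share its counts and are not independent of each other. Of the 10 ratios, 5 were lower in *3h1* without overlap, of which 4 have *ROS1* on top and 1 is *DME* to *DML2*. The ratio of *DML2* to *IBM1* was higher without overlap, and the other 4 ratios overlapped. *DME* to *IBM1* was among these, with 2.21, 2.73 and 2.34 in *3h1* and 2.19, 2.04 and 2.33 in wt (exact permutation test, p = 0.2). Each ratio without overlap involves *ROS1* or *DML2*, whose CPM already separated the genotypes. How often the ratios of other gene pairs separate in these libraries was not computed.

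Among the transcripts of the 4 glycosylases, *ROS1* made up 35.7 ± 3.79% of the summed RPKM in *3h1* and 51.1 ± 3.33% in wt (SD, n = 3 each). The share of *DML2* was 22.0 ± 0.631% in *3h1* and 13.6 ± 3.28% in wt, that of *DME* was 38.3 ± 3.92% in *3h1* and 33.0 ± 1.85% in wt, and that of *DML3* was 4.02 ± 0.662% in *3h1* and 2.20 ± 1.08% in wt. Each of these shares separated the genotypes without overlap, but those of *DME* and *DML3* only narrowly. The lowest *3h1* and the highest wt share were 34.5 and 34.4% for *DME*, and 3.31 and 3.04% for *DML3*. How often such shares separate for other genes was not computed. As the shares add up to the whole, a lower share of *ROS1* raises those of the others. The order of the summed levels depended on the scaling. The 4 genes summed to 18.1, 16.4 and 19.3 RPKM in *3h1*, within the wt values of 20.6, 15.8 and 19.1 RPKM. In TMM-normalized CPM per kilobase of exon, a scaling added after the RPKM values had been seen, they summed to 16.7, 15.7 and 17.7 in *3h1*, below all wt values of 20.0, 18.7 and 21.5.

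**Figure D4:**
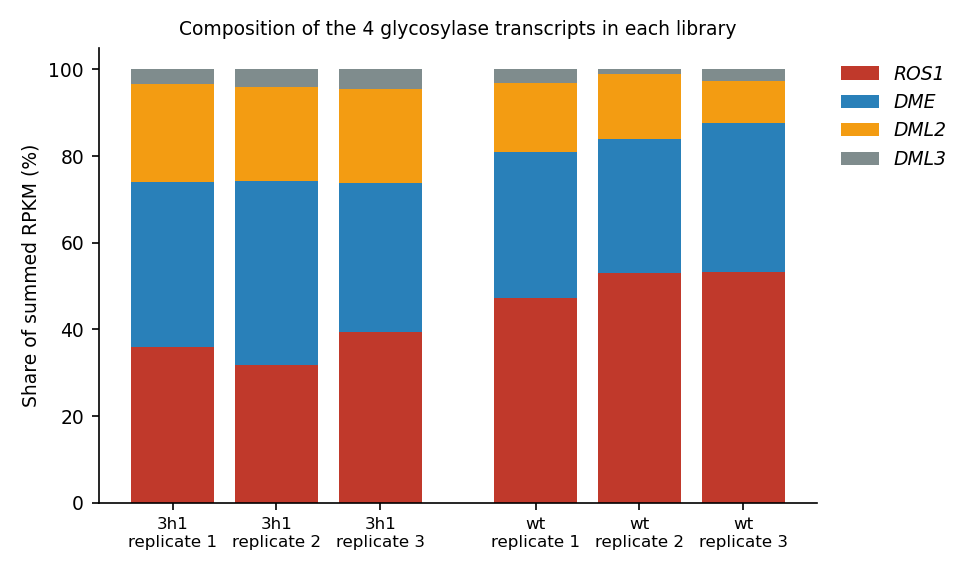
Share of *ROS1*, *DME*, *DML2* and *DML3* in their summed RPKM (%) in each library, *3h1* on the left and wt on the right. *ROS1* took 31.9 to 39.4% in the *3h1* libraries and 47.3 to 53.2% in the wt libraries.

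Demethylation also needs partner proteins, which were followed in a list of 19 genes for base excision repair, assembly of the iron-sulphur cluster that the glycosylases carry, targeting to chromatin and the FACT histone chaperone. Of these, 18 were tested, 0 had an adjusted p under 0.05 in edgeR's test, and an unadjusted p under 0.05 was reached by 1 on the higher and 0 on the lower side, where 5.33% and 4.17% of all genes reached it. The median log2 fold change was -0.080, and it was -0.15 without *3h1* replicate 1 and 0.0082 without wt replicate 2. The gene with that p and also the largest difference was *IDM3*, a small heat shock-like protein of the complex that guides ROS1 to its targets. It was counted 18, 9 and 11 times in *3h1* against 7, 1 and 4 times in wt (log2 fold change 1.34, unadjusted p = 0.0296, adjusted p = 0.467, edgeR). *IDM3* reached the count filter through the *3h1* libraries alone, so that its higher value there was built into its being tested. The FACT subunits *SSRP1* and *SPT16* had log2 fold changes of -0.18 and -0.24, with standard errors of 0.21 and 0.16.

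For *IBM1*, 6 genes whose products act on the read-through of its long intron or on its polyadenylation were tested, with 3 higher and 3 lower values and 0 with an unadjusted p under 0.05. *EDM3* had the largest difference, at 1.53 CPM in *3h1* and 2.15 in wt (log2 fold change -0.47, standard error 0.43). *IBM2*, which binds that intron, had a log2 fold change of 0.17. The relatives of *IBM1* in the KDM3 family of histone demethylases had 4 higher values and 1 lower value, with 0 genes passing the adjusted threshold. Among them, *JMJ26* (AT1G11950) had 9.97, 9.08 and 10.6 CPM in *3h1* against 6.57, 5.57 and 6.16 CPM in wt, without overlap. Its log2 fold change was 0.71 with a standard error of 0.20 (unadjusted p = 0.00522, adjusted p = 0.327, edgeR). The counts of *JMJ26* were not whole in any of the 6 libraries, so part of its reads was divided with other loci. *JMJ26* is also the gene with the best match to *IBM1* elsewhere in the genome, 150 bases at 72.0% identity. The counts of *IBM1* itself, however, were not whole in only 2 of 6 libraries, and which loci shared the reads of *JMJ26* was not tested.

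The writers of the marks were set beside the genes that take them off. Of the 7 DNA and H3K9 methyltransferase and remodelling genes tested, 6 had higher and 1 lower values in *3h1*, but none (0 of 7) had an unadjusted p under 0.05 in edgeR's test. The median log2 fold change was 0.28, and it was 0.17 without *3h1* replicate 1 and 0.16 without wt replicate 3. *MET1*, the maintenance methyltransferase for CG sites, had 21.8 CPM in *3h1* and 18.0 in wt (log2 fold change 0.29, standard error 0.21). *KYP*, the H3K9 methyltransferase that IBM1 counteracts, had the largest difference (log2 fold change 0.61, standard error 0.38, adjusted p = 0.646, edgeR). *SUVH6* was not analysed here.

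Of 11 loci known to depend on demethylation by these enzymes, 10 were in the table and only 3 reached the filter. *EPF2*, *FWA*, *FIS2*, *MEA*, *PHE1*, *RLP43* and *BNS* had at most 17 counts in any library, and did not reach the filter. The median log2 fold change of the 3 tested loci was 0.64, and it was 0.32 without *3h1* replicate 3 and 0.31 over 10 loci with no count filter. *RDR2*, an RNA-dependent RNA polymerase whose expression is known to need IBM1, had 9.27, 7.47 and 8.00 CPM in *3h1* against 6.62, 4.74 and 4.46 CPM in wt, with every *3h1* library above every wt library (log2 fold change 0.64, standard error 0.24, unadjusted p = 0.0223, adjusted p = 0.432, edgeR). *DCL3*, its partner in small RNA production and likewise known to need IBM1, had a log2 fold change of 0.14. *RMG1*, a disease resistance gene whose promoter ROS1 is known to demethylate, had the largest difference, with 2.42, 1.87 and 8.38 CPM in *3h1* against 2.46, 1.99 and 0.609 CPM in wt. That difference rested on *3h1* replicate 3, as the other *3h1* libraries lay within the wt range (log2 fold change 1.31, adjusted p = 0.551, edgeR).

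Over these 5 lists, 39 of 50 genes were tested, 0 had an adjusted p under 0.05, and 3 had an unadjusted p under 0.05 on the higher side and 0 on the lower side. *IDM3* was the only 1 of the 39 that reached the filter through a single genotype. Without it, a choice made after seeing the data, 2 of 38 genes (5.26%) had such a p on the higher side, a share near the 5.33% of all genes, and 0 on the lower side, where 4.17% of all genes did. In CPM, 6 of these 38 (15.8%) were higher in *3h1* without overlap, beside 7.6% of all genes, and 0 were lower, beside 7.53% of all genes. The lists were chosen with earlier results of these data known, and their counts are descriptions. Of the 39 genes, 14 overlap a gene on the opposite strand, by 19 to 1153 bases. Among the genes that were higher without overlap of their values these were *ARP* (224 bases), *JMJ29* (693 bases) and *IDM3* (44 bases). *H1.1* overlaps a long non-coding RNA on the opposite strand by 484 bases. Whether the counts used the strand is not given in the sources used here.

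**Figure D5:**
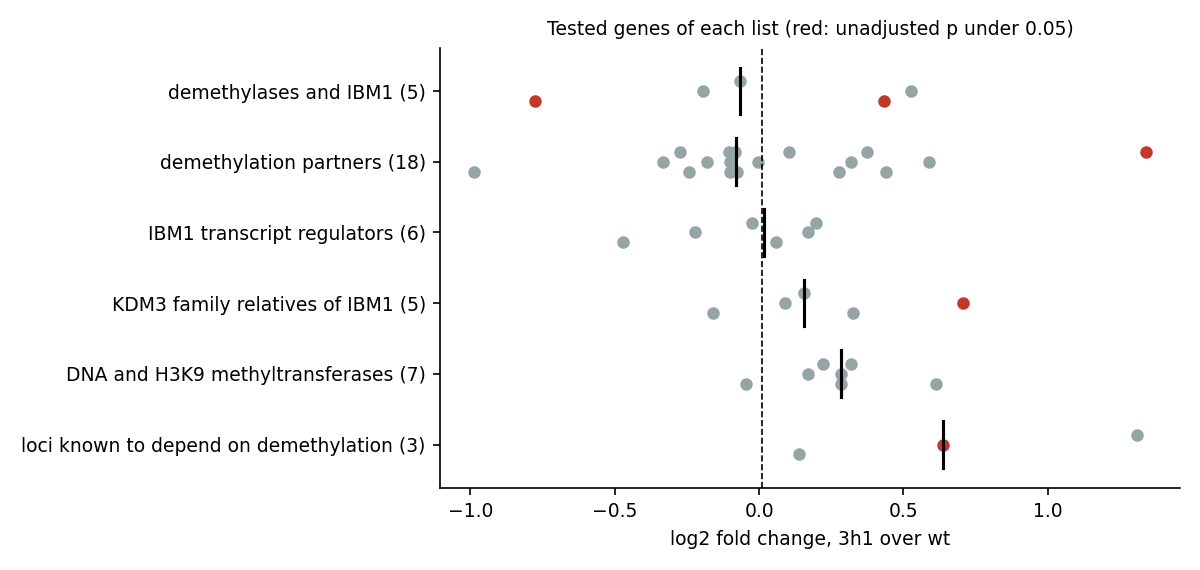
Log2 fold changes of *3h1* over wt for the tested genes of the 5 demethylation genes and of each related list (number tested in brackets), red where the unadjusted p was under 0.05. Short lines mark the median of each list, from -0.080 for demethylation partners to 0.64 for loci known to depend on demethylation (0.32 without *3h1* replicate 3), and the dashed line the median of all genes tested (0.011).

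The genes most like each member over the 6 libraries were named by the Pearson correlation of log2(CPM + 1), given as a description. For *ROS1* these were *BDG1* (AT1G64670, r = 0.991), a cuticle-forming hydrolase, and *LPLAT1* (AT1G12640, r = 0.990). For *DME* they were the histone acetyltransferase gene *HAC1* (AT1G79000, r = 0.995) and *TBL36* (AT3G54260, r = 0.991). For *DML2* they were AT3G06630 (r = 0.991) and *ZFP4* (AT1G66140, r = 0.991), for *DML3* AT4G36470 (r = 0.998) and *ECI1* (AT1G65520, r = 0.996), and for *IBM1* *IPT9* (AT5G20040, r = 0.997) and *WRI4* (AT1G79700, r = 0.987). Such values are common with 6 libraries, as from 110 genes (0.630%) for *IBM1* to 257 genes (1.47%) for *DML2* of the 17452 compared had an r over 0.9, and the points share the library, its depth and the genotype difference.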

How the data were processed

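Total RNA of 3 replicates per genotype was depleted of ribosomal RNA and sequenced on an Ion Proton. The authors removed residual ribosomal and ERCC reads, aligned the rest to TAIR10 with TMAP and BBMap, and counted ARAPORT11 genes in Partek Flow, which divides multi-mapping reads by expectation maximization. The deposited expected counts are not normalized. A table of the authors' own comparison (group means, ratios, p values) was not used.

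Counts were rounded, filtered with filterByExpr, normalized by TMM and tested with edgeR 4.0.16 (quasi-likelihood test, R 4.3.3, Benjamini-Hochberg adjustment over 17453 genes), without a replicate block. DESeq2 1.42.0 and limma 3.58.1 were alternatives. The p values measure the spread between pools of seedlings. RPKM used TAIR10.1 exon lengths. Sequences are RefSeq's for TAIR10.1, and matches were sought with blastn 2.17.0. The fit was tested on simulated counts.

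Members and lists were chosen with earlier results of these data known. List genes are named where their unadjusted p was under 0.05 or their difference the largest of the list, and by likeness the 2 most correlated genes. *SSRP1*, *SPT16*, *IBM2*, *MET1*, *DCL3* and the untested loci were added after their values were seen.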

Additional observations from a re-analysis of the deposited data

How the results depend on the processing

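The 17 alternatives were 3 normalizations, 2 count filters, DESeq2, limma voom, unrounded counts, a block for the replicate number, a fit to nuclear genes alone, 6 fits without 1 library each, and a fit without *3h1* replicates 1 and 3 together (leaving *3h1* replicate 2 alone). In all of them, 0 of the 5 genes and 0 of the related genes had an adjusted p under 0.05. *ROS1* stayed negative with an unadjusted p under 0.05 in 17 of 17, and *DML2* stayed positive in 17 of 17, with such a p in 8. The number of the 5 genes with an unadjusted p under 0.05 was 2, and was 1 with no count filter, with DESeq2, with the replicate block and without *3h1* replicates 1 and 3 together, and from 1 to 2 when 1 library at a time was left out. The log2 fold change of *DME* (-0.066) was 0.16 and that of *IBM1* (-0.20) was 0.031 with library totals alone, which shifted the median of all genes to 0.24, and that of *DME* was from -0.17 to 0.0016 when 1 library at a time was left out, with the positive value without wt replicate 3. *DML3* could not be tested with at least 10 counts in every library. Same-numbered libraries deviated from their group means with correlations of -0.058, -0.16 and -0.11, and libraries of different numbers with -0.034 to 0.13. Whether same-numbered libraries were grown or sequenced together is not stated, and these correlations cannot decide it. With the replicate block the log2 fold change was -0.78 for *ROS1* and 0.45 for *DML2* (unadjusted p = 0.000693 and 0.0508, edgeR). RPKM on nuclear counts raised all levels and gave *ROS1* 14.1 in *3h1* and 23.3 in wt. With 3 libraries per genotype and 3 to 22.1 counts for *DML3*, this gene had the least depth.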
